A study of Mus musculus with 4 samples.

Results

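The 33 genes described here carry out cholesterol synthesis, sense sterols and move cholesterol out of the cell. They were chosen by name, and each was read from 1 probe set, the one of its single-symbol probe sets that was highest on average. Of the 33, 30 had a value and all 30 reached the floor used for testing, out of 19938 genes with a value and 11326 tested. Acat2, Nr1h2 and Soat1 were not analysed here. The RNA came from mouse microglia, the macrophages of the brain parenchyma, hybridised to Affymetrix Mouse Gene 1.0 ST arrays, whose probes lie along the whole transcript. The groups were Bid-/- with lipopolysaccharide (LPS, a bacterial cell wall component sensed by TLR4) for 3 h, Bid-/- untreated, WT with LPS for 3 h and WT untreated, with 1 array in each. WT is labelled C57Bl. The sources used here do not state the background of the Bid-/- cells, the animals' age or sex, or how many cultures fed each array. Bid encodes a death-promoting member of the Bcl-2 family, and the series asks how the inflammatory profile of microglia depends on it.

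Cholesterol is built from acetyl-CoA through the mevalonate steps to squalene, which is closed into a ring and trimmed through a chain of sterol intermediates. When membrane sterol is low, the escort protein SCAP carries SREBP out of the endoplasmic reticulum and SREBP turns on the synthesis genes; when sterol is high, INSIG proteins hold the complex back. The liver X receptors (LXR) sense oxysterols and turn on export genes, and microglia load the exported lipid onto apolipoprotein E.

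Promoter sequence is shown for the genes on which the LPS results turn and for Hmgcs1, which holds the letters searched as a sterol regulatory element. The windows run from 250 bases before to 50 bases after the start site, are written 5′ to 3′ on the strand of the gene, and come from RefSeq on build GRCm38.p6, where 28 of the 33 genes had a window; those without one were Abcg1, Fdps, Fdft1, Sqle and Stard4. Capitals mark CCAAT, the box bound by NF-Y, and TCACCCCAC, a sterol regulatory element bound by SREBP, on either strand. CACGTG, an E-box, was also searched and is in none of the 6. Only these exact letters were searched. The windows are Ch25h (chr19:34475099-34475398, minus strand), Hmgcs1 (chr13:119690101-119690400, plus strand), Lss (chr10:76531355-76531654, plus strand), Lbr (chr1:181842352-181842651, minus strand), Msmo1 (chr8:64733529-64733828, minus strand) and Mylip (chr13:45389492-45389791, plus strand).
Ch25h: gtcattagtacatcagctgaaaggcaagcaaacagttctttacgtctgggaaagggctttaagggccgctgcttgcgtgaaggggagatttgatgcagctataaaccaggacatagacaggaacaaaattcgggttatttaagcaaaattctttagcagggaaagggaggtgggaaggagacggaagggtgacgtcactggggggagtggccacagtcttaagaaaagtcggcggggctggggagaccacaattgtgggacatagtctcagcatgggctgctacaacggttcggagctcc
Hmgcs1: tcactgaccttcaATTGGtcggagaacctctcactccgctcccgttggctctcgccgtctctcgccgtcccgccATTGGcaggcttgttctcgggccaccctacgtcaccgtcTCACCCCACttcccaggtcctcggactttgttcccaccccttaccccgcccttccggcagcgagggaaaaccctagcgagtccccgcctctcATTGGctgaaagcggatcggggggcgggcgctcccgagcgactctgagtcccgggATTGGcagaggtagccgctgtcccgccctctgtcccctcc
Lss: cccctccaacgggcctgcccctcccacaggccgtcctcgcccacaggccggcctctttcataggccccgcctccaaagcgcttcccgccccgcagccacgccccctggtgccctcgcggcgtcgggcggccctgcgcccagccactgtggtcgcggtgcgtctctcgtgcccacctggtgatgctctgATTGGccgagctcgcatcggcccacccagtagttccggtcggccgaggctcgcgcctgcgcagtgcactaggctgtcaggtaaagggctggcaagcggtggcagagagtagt
Lbr: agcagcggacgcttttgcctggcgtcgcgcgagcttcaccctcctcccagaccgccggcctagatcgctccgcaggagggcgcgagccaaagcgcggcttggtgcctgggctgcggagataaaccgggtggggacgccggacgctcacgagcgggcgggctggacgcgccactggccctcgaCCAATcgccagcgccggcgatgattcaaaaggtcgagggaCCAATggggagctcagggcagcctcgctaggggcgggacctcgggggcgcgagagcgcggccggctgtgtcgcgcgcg
Msmo1: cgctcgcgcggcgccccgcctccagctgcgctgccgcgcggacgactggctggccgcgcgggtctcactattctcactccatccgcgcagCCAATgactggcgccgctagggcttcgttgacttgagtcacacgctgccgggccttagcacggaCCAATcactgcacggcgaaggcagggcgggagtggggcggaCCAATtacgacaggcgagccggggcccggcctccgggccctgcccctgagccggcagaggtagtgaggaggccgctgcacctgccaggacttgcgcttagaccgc
Mylip: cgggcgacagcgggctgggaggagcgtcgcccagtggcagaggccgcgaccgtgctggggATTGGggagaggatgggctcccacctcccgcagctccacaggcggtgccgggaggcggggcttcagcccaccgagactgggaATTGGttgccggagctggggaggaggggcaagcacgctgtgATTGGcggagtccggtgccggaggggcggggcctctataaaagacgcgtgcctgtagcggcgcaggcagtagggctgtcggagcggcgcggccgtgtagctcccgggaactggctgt
The 28 genes with a window, which include Acat2, Nr1h2 and Soat1, had 39 windows between them. The CCAAT letters were in 22 of the 39 windows (56.4%), against 37.4% of 32851 windows of all genes. Hmgcs1 held 4 of them, Msmo1 and Mylip 3 each, Lbr 2, Lss 1 and Ch25h 0. The exact letters TCACCCCAC were in 1 of the 39 windows, against 0.551% of all windows. That was the window of Hmgcs1, with the first base at -137 from the start site. Other spellings of a sterol regulatory element were not searched. The E-box was in 7 of the 39 (17.9%), against 7.15%. A match describes the letters and not binding, and these motifs do not overlap in the windows shown.

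The 4 arrays were alike over 28944 probe sets (Pearson's r from 0.984 to 0.996), and having 1 array per group limits the precision of every value below. Tnf, an LPS-induced cytokine, was 3.03 higher with LPS on the log2 scale on the arrays labelled Bid-/- and 2.87 higher in WT. The cytokines Il6 and Il1b were 3.68 and 1.25 higher on the arrays labelled Bid-/-, and 4.47 and 1.77 higher in WT. The probe set of Bid read 5.97 with and 5.53 without LPS on the arrays labelled Bid-/-, and 5.02 with and 5.69 without LPS in WT. It was therefore not lower on both arrays labelled Bid-/-, and the sources used here do not say where its probes lie relative to the deletion; genotypes below are those of the labels. Microglial markers averaged between 8.38 and 8.90 over 9 genes on the 4 arrays; P2ry12 lay between 3.90 and 4.38, and Cx3cr1, the microglial fractalkine receptor, fell with LPS (8.35 with and 9.76 without LPS on the arrays labelled Bid-/-, 8.61 with and 9.73 without in WT, limma adjusted p = 0.045). Neuronal markers averaged between 3.29 and 3.37 and none (0 of 5) reached the floor of 4.26, the median over probe sets of the 4-array mean. Of the astrocyte markers 6 of 8 reached it, among them Gja1 (4.84 to 5.99) but not Gfap or Aqp4, and the list averaged between 4.17 and 4.39. Oligodendrocyte markers averaged between 4.31 and 4.41 over 7 genes with a value (5 tested), and endothelial markers between 4.50 and 4.75 over 4 (4 tested). Fibroblast and mural markers (10 with a value, 8 tested) averaged 5.46 with LPS and 5.55 without on the arrays labelled Bid-/-. In WT the same 10 averaged 5.55 with LPS and 4.82 without. In such mixed RNA, fewer cells of a type and less RNA per cell cannot be told apart.

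**Figure D1:**
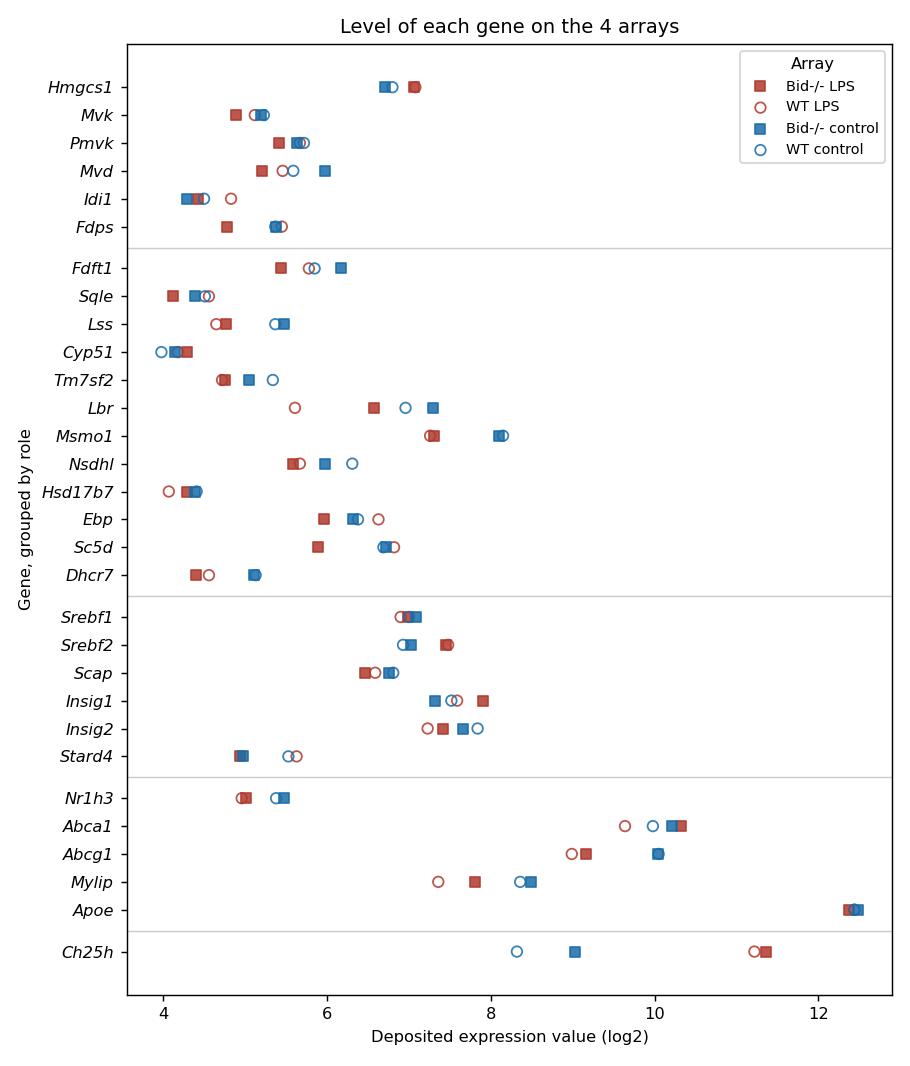
Deposited log2 expression value (x axis) of the 30 measured genes (y axis, grouped from top to bottom as mevalonate steps, squalene and sterol steps, sensing and SREBP control, LXR and efflux, and oxysterol formation). Each symbol is 1 array; the 2 LPS arrays of Ch25h lie at 11.36 and 11.22, to the right of its controls at 9.03 and 8.32, while those of Abcg1, Mylip, Lss, Msmo1, Dhcr7 and Lbr lie to the left of their controls. Values of different genes are from different probes and are not to be ranked against each other.

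The LPS comparison asks which of these genes responded to 3 h of LPS. Ch25h, which encodes the cholesterol hydroxylase that makes a soluble oxysterol, was the only 1 of the 30 genes that passed. It read 11.36 with LPS and 9.03 without on the arrays labelled Bid-/-, and 11.22 with LPS and 8.32 without in WT. Both LPS arrays lay above both control arrays. The rise was 5.03-fold on the arrays labelled Bid-/- and 7.46-fold in WT, with a mean of 2.62 ± 0.19 on the log2 scale (SE, additive fit on 4 arrays, limma adjusted p = 0.0272). Among all genes tested, 1.68% passed as higher. Over the alternatives the Ch25h effect ran from 2.49 to 2.62 and its limma adjusted p from 3.84e-07 to 0.0951, the last without a floor.

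No gene of the 30 passed as lower with LPS (0 of 30, limma), where 1.56% of all genes tested did. Without adjustment 11 of the 30 had a limma p under 0.05 (9 lower, Ch25h and Srebf2 higher), against 28.8% of all genes. The 9 were Lss, Tm7sf2, Lbr, Msmo1, Nsdhl, Dhcr7, Nr1h3, Abcg1 and Mylip, with limma adjusted p between 0.0527 and 0.116. The count of lower genes depended on the fit, which has 1 residual degree of freedom. It was 9 with noise added inside the rounding of the deposited values, 7 with intensity and gene span trends removed and 6 after quantile normalization. Among all genes, 1410 of 11308, 1379 of 11301 and 1112 of 11286 were then lower. The count was 4 with a floor of 6, where fewer of the 30 were tested, against 539 of 6822 genes. Without the genotype term it was 4, against 551 of 11326 genes, and in the other alternatives 0.

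At the level of single arrays, 10 of the 30 genes read lower after LPS by 1.5-fold or more in the Bid-/- label (10.1% of all genes) and 8 in WT (10.9% of all genes). Of these, 5 were the same genes, Lss, Lbr, Msmo1, Abcg1 and Mylip: 5 of 10 and 5 of 8. Among all genes, 5.35% were lower by this measure in both labels. These were 606 of the 1141 genes lower in the Bid-/- label and of the 1236 lower in WT. Only Ch25h was at least 1.5-fold higher, on the arrays labelled Bid-/- (6.69% of all genes), in WT (5.72%) and in both (3.63%). A 2-fold difference in either direction was read for Ch25h on the arrays labelled Bid-/- (4.22% of all genes) and for Ch25h, Lbr, Abcg1 and Mylip in WT (4.4%). The LPS difference was below 0 in both labels for 17 of the 30 genes and above 0 in both for 6, against 42.1% and 26.5% of all genes. Its median was -0.30 on the arrays labelled Bid-/- and -0.11 in WT, where the medians of all genes were -0.09 and -0.05. Once the intensity and span trends were removed it was -0.192 on the arrays labelled Bid-/- and -0.039 in WT. The medians of all genes were then -0.04 and -0.021. The microglial markers had medians of -0.33 on the arrays labelled Bid-/- (9 of 9 below 0) and -0.13 in WT (7 of 9), and their part in these values was not tested.

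**Figure D2:**
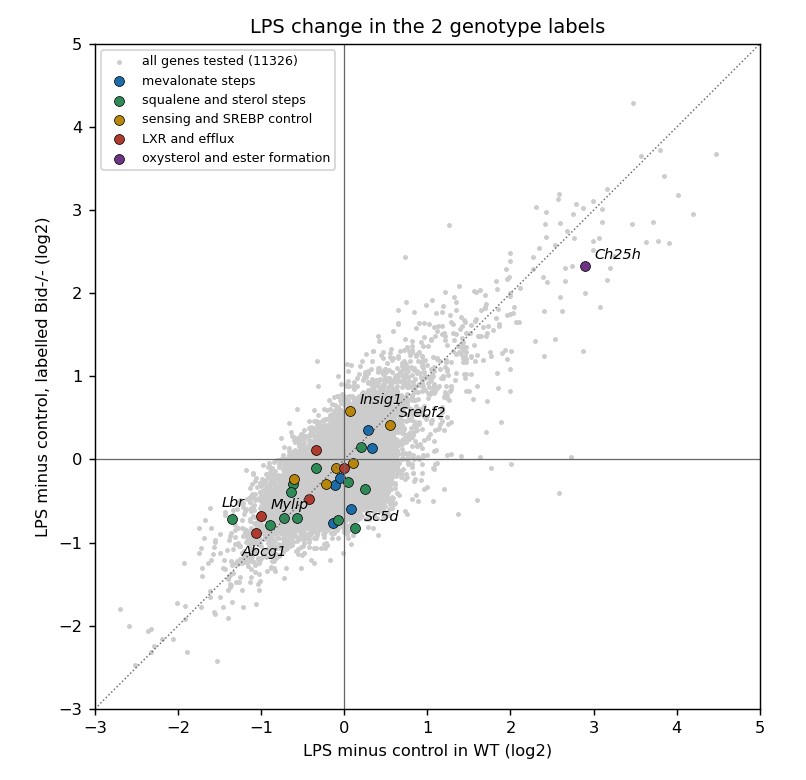
LPS minus control on the log2 scale on the arrays labelled Bid-/- (y axis) and in WT (x axis) for 11326 genes (grey) and the 30 genes by role (colours); the dotted line marks equal changes. In the order Bid-/- label and WT, Ch25h lies at 2.33 and 2.90, Lbr at -0.72 and -1.35, and Sc5d at -0.83 and 0.13, off the line.

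The squalene and sterol steps had the lowest median LPS difference of the synthesis genes. Of the 12 genes, 11 were below 0 with LPS on the arrays labelled Bid-/- and 8 in WT, with medians of -0.55 and -0.46. Msmo1, the methylsterol monooxygenase, read 7.31 with LPS and 8.10 without on the arrays labelled Bid-/-, and 7.26 with LPS and 8.15 without in WT (effect -0.84 ± 0.14 SE, limma adjusted p = 0.0613). Lss, the lanosterol synthase that closes the ring, read 4.77 with LPS and 5.48 without on the arrays labelled Bid-/-, and 4.65 with LPS and 5.37 without in WT (-0.72 ± 0.10 SE, limma adjusted p = 0.0527). Dhcr7, the reductase of the last step to cholesterol, read 4.40 with LPS and 5.11 without on the arrays labelled Bid-/-, and 4.56 with LPS and 5.13 without in WT (-0.64 ± 0.10 SE, limma adjusted p = 0.0588). In each of these 3 genes both LPS arrays lay below both control arrays, and the labels differed by at most 0.14 in their response. Lbr, an inner nuclear membrane protein that is also a sterol reductase, read 6.58 with LPS and 7.30 without on the arrays labelled Bid-/-, and 5.61 with LPS and 6.96 without in WT (-1.04 ± 0.20 SE, limma adjusted p = 0.0718). Its LPS arrays were also both below its controls, with the lowest value in WT.

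Tm7sf2, a sterol reductase of the same family as Lbr, read 4.75 with LPS and 5.05 without on the arrays labelled Bid-/-, and 4.72 with LPS and 5.34 without in WT. Nsdhl, a dehydrogenase of sterol demethylation, read 5.59 with LPS and 5.98 without on the arrays labelled Bid-/-, and 5.67 with LPS and 6.31 without in WT. Both genes were lower on both LPS arrays, with differences of -0.30 and -0.39 on the arrays labelled Bid-/- and -0.62 and -0.64 in WT. Sc5d, the sterol desaturase, read 5.89 with LPS and 6.72 without on the arrays labelled Bid-/-, and 6.82 with LPS and 6.69 without in WT. Ebp, the sterol isomerase, read 5.96 with LPS and 6.32 without on the arrays labelled Bid-/-, and 6.63 with LPS and 6.38 without in WT. Fdft1, the squalene synthase, read 5.44 with LPS and 6.17 without on the arrays labelled Bid-/-, and 5.78 with LPS and 5.85 without in WT. These 3 genes had their lowest value on the Bid-/- LPS array, and the other 3 arrays of Sc5d lay within 6.69 and 6.82. A second, dimmer probe set of Fdft1 read 5.11 with LPS and 5.58 without on the arrays labelled Bid-/-, and 5.18 with LPS and 5.35 without in WT, the same direction as the one used. Sqle, the squalene epoxidase, Cyp51, the lanosterol demethylase, and Hsd17b7, a ketosterol reductase, had LPS differences of -0.27, 0.15 and -0.10 on the arrays labelled Bid-/- and 0.05, 0.20 and -0.34 in WT; each was below the floor on at least 1 array.

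The mevalonate steps did not share 1 direction. Hmgcs1, the HMG-CoA synthase, read 7.06 with LPS and 6.71 without on the arrays labelled Bid-/-, and 7.08 with LPS and 6.80 without in WT (0.32 ± 0.13 SE, limma adjusted p = 0.223). Idi1, the isopentenyl diphosphate isomerase, differed by 0.14 on the arrays labelled Bid-/- and 0.33 in WT. Its second probe set read 4.25 with LPS and 4.16 without on the arrays labelled Bid-/-, and 4.91 with LPS and 4.50 without in WT. Both genes thus read higher on the LPS array of each label. Mvd, the diphosphomevalonate decarboxylase, read 5.21 with LPS and 5.98 without on the arrays labelled Bid-/-, and 5.46 with LPS and 5.59 without in WT. Fdps, the farnesyl diphosphate synthase, read 4.78 with LPS and 5.38 without on the arrays labelled Bid-/-, and 5.45 with LPS and 5.37 without in WT. The Bid-/- LPS array was the lowest of the 4 in both. The kinases Mvk and Pmvk differed by -0.31 and -0.22 on the arrays labelled Bid-/- and by -0.11 and -0.05 in WT. For the 6 genes the median difference was -0.27 on the arrays labelled Bid-/- and 0.02 in WT.

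Among the genes that sense sterol and control SREBP, the median LPS difference was -0.07 on the arrays labelled Bid-/- and -0.02 in WT, and turned to 0.057 and 0.042 with trends in intensity and span removed. Srebf2, which encodes the SREBP that mainly drives cholesterol synthesis, read 7.45 with LPS and 7.03 without on the arrays labelled Bid-/-, and 7.48 with LPS and 6.93 without in WT (0.49 ± 0.14 SE, limma adjusted p = 0.125). Both LPS arrays lay above both controls, the opposite side from Msmo1, Lss, Dhcr7 and Lbr above. Srebf1, which encodes the SREBP isoforms active in fatty acid synthesis, differed by -0.10 in both labels, and the escort Scap by -0.29 on the arrays labelled Bid-/- and -0.22 in WT. Insig1 read 7.90 with LPS and 7.32 without on the arrays labelled Bid-/-, and 7.59 with LPS and 7.52 without in WT. Insig2 read 7.42 with LPS and 7.66 without on the arrays labelled Bid-/-, and 7.23 with LPS and 7.84 without in WT. The 2 retention proteins thus read on opposite sides, Insig1 higher and Insig2 lower on the LPS arrays of both labels (limma adjusted p = 0.343 and 0.199). Stard4, a sterol transfer protein, differed by -0.04 on the arrays labelled Bid-/- and 0.10 in WT.

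The LXR and efflux genes had medians of -0.47 on the arrays labelled Bid-/- and -0.42 in WT. Abcg1, a transporter that hands cholesterol to lipoproteins, read 9.16 with LPS and 10.04 without on the arrays labelled Bid-/-, and 8.99 with LPS and 10.05 without in WT (-0.97 ± 0.14 SE, limma adjusted p = 0.0542). Mylip, a ubiquitin ligase for lipoprotein receptors and an LXR target, read 7.81 with LPS and 8.49 without on the arrays labelled Bid-/-, and 7.36 with LPS and 8.36 without in WT (-0.84 ± 0.16 SE, limma adjusted p = 0.0721). Nr1h3, which encodes LXR alpha, read 5.01 with LPS and 5.48 without on the arrays labelled Bid-/-, and 4.96 with LPS and 5.38 without in WT (-0.45 ± 0.10 SE, limma adjusted p = 0.0895). In all 3 both LPS arrays lay below both controls. Abca1, the transporter that loads apolipoproteins and also an LXR target, read 10.32 with LPS and 10.21 without on the arrays labelled Bid-/-, and 9.64 with LPS and 9.98 without in WT (limma adjusted p = 0.704 for LPS). Both Bid-/- label arrays lay above both WT arrays. Apoe, the lipid carrier, read 12.38 with LPS and 12.48 without on the arrays labelled Bid-/-, and 12.44 on both WT arrays; its 4 values lay within 0.10.

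**Figure D3:**
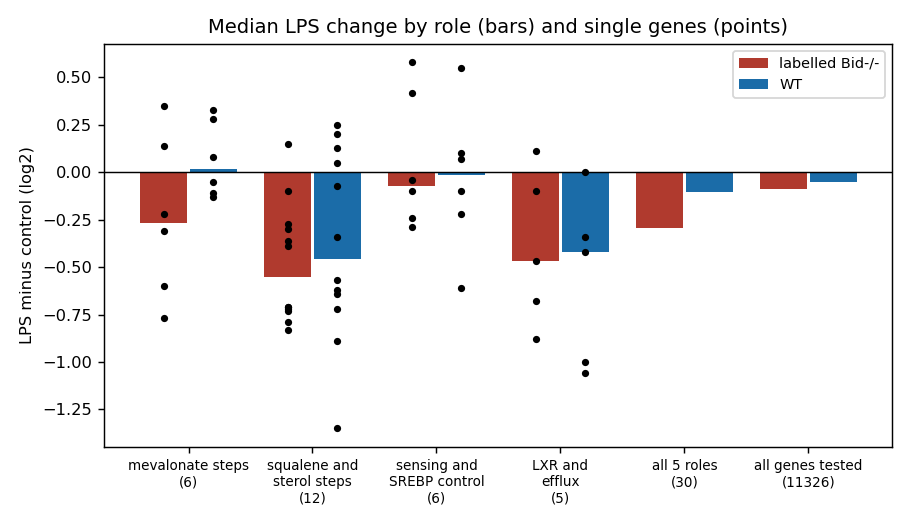
LPS minus control on the log2 scale (y axis) by role, with the number of genes in brackets; bars are medians (red, arrays labelled Bid-/-; blue, WT) and points are single genes. The medians of the squalene and sterol steps (-0.55 and -0.46) and of LXR and efflux (-0.47 and -0.42) lie below those of all genes tested (-0.09 and -0.05). Ch25h, alone in its role, is only in the bars for the 5 roles together.

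Further genes of sterol and lipid handling did not pass either. Of 63 further genes listed, 52 had a value and 46 were tested. With LPS 0 passed as higher and 0 as lower (limma), against 1.68% and 1.56% of all genes. Their median LPS difference was -0.40 on the arrays labelled Bid-/- and -0.30 in WT. The largest mean differences were read for Gramd1a, a sterol carrier at membrane contact sites (1.37 on the arrays labelled Bid-/- and 0.95 in WT), Nceh1, a cholesteryl ester hydrolase (-1.11 and -0.96), Stard5, a sterol-binding protein (1.13 and 0.93), and Scd2, a fatty acid desaturase (-1.05 and -0.91). Their limma adjusted p lay at 0.0561, 0.0506, 0.0547 and 0.0527. The 10 fatty acid synthesis genes tested had medians of -0.37 and -0.32, and the 12 of uptake and lysosomal transport 0.01 and -0.21, of which the first turned to -0.12 with trends removed.

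The genotype comparison asks how the levels depended on the label. None of the 30 genes passed (0, limma), as none of 11326 did (0.0%), with limma adjusted p of 0.623 or higher for each; without adjustment 3 of the 30 had a limma p under 0.05, against 6.26% of all genes. These were Stard4, Lbr and Idi1. Stard4 read 4.94 with and 4.98 without LPS on the arrays labelled Bid-/-, and 5.63 with and 5.53 without LPS in WT, so both arrays of the label lay below both WT arrays (-0.62 ± 0.11 SE, limma adjusted p = 0.623). Idi1 was also lower in both conditions, by -0.40 with LPS and -0.21 without. Background, sex and culture cannot be told apart from the label in any of these values.

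With LPS, 2 of the 30 genes were above WT by 1.5-fold or more in the Bid-/- label (4.6% of all genes), Lbr by 0.97 and Abca1 by 0.68. Another 4 were lower by as much (5.92% of all genes), Sc5d by -0.93, Stard4 by -0.69, and Fdps and Ebp by -0.67 each. None differed 2-fold (0 of 30, against 0.795% of all genes). The difference between these 2 arrays went with the span of the gene: its median was -0.18 in the shortest of 10 span bins and 0.21 in the longest. Counted from the shortest, Ebp and Fdps (8184 and 8380 bases) lay in bin 3, where the median was -0.11. Sc5d and Stard4 (12709 and 14725 bases) lay in bin 4 (-0.03), and Lbr (27087 bases) in bin 6 (0.03). Abca1 (129200 bases) lay in the longest bin. With trends in intensity and span removed, Sc5d was at -0.86, Stard4 at -0.67, Fdps at -0.60, Ebp at -0.54, Lbr at 0.91 and Abca1 at 0.36.

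Without LPS, Ch25h was the 1 gene above WT by 1.5-fold or more in the Bid-/- label, by 0.71 (1.4% of all genes), and none was 1.5-fold lower (0 of 30, against 0.424%) or 2-fold different in either direction (0 of 30, against 0.415%). Fibroblast and mural markers went the same way between these 2 arrays: all 8 tested were above 0, with a median of 0.77, and their part in the Ch25h value was not tested. With LPS Ch25h differed by 0.14 and those markers by a median of 0.22, with 6 of 8 above 0. Without LPS the cytokines Il6, Il1b and Tnf differed between the labels by 0.69, 0.49 and -0.30. Whether this bears on Ch25h was not tested.

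**Figure D4:**
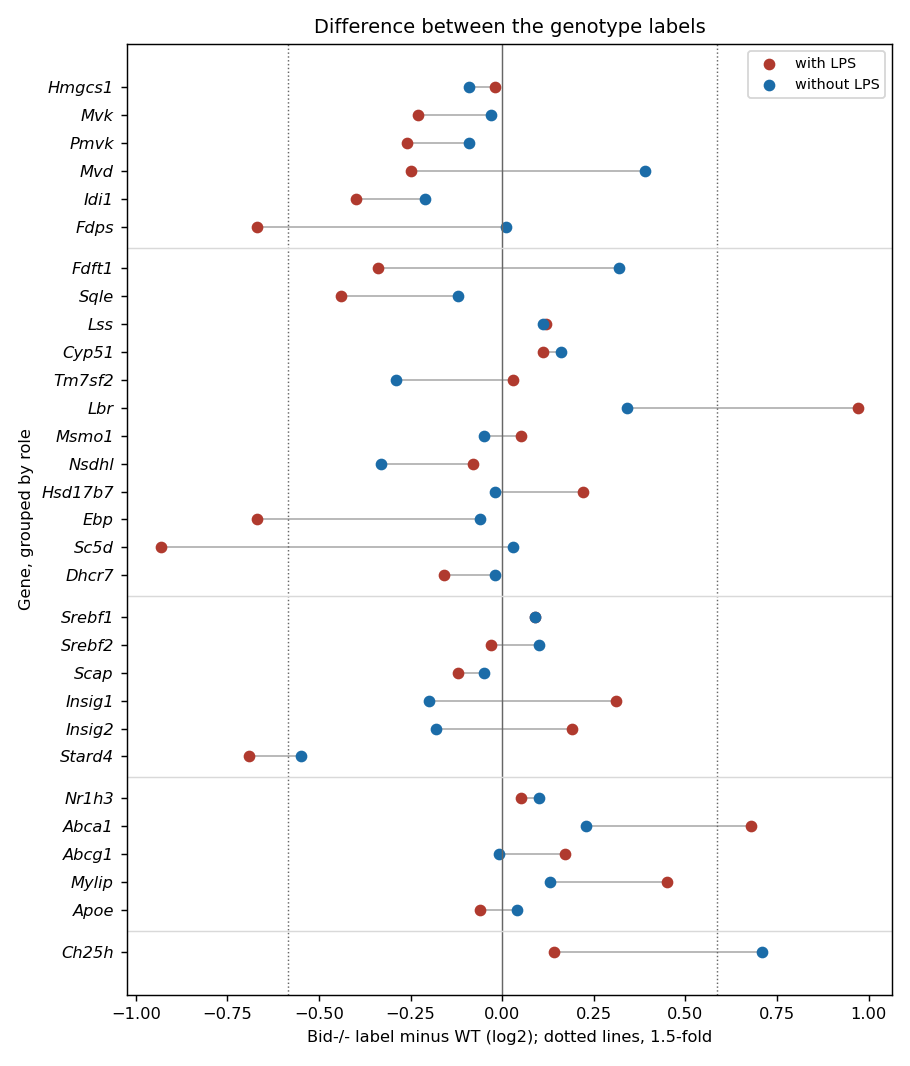
Bid-/- label minus WT on the log2 scale (x axis) for each of the 30 genes (y axis, by role), with LPS (red) and without (blue); grey lines join the 2 values of a gene and dotted lines mark 1.5-fold. Sc5d, Ebp and Fdps sit at -0.93, -0.67 and -0.67 with LPS and near 0 without it, Lbr at 0.97 with LPS and 0.34 without, and Stard4 left of 0 in both.

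The last comparison asks whether the LPS response depended on the label, and has no test with 1 array per group. The response on the arrays labelled Bid-/- was at least 1.5-fold lower than in WT for 5 of the 30 genes (6.06% of all genes), Sc5d (-0.96), Fdps (-0.68), Fdft1 (-0.66), Mvd (-0.64) and Ebp (-0.61). It was at least 1.5-fold higher for Lbr (0.63), where 3.26% of all genes were, which is a smaller negative difference. No gene reached 2-fold (0 of 30, against 0.786% of all genes). The 5 lower genes are all synthesis steps, as are 18 of the 30 genes, Lbr among them. The median of the 18 was -0.16, against 0.18 for the 5 LXR and efflux genes and 0.00 for all genes. It was -0.195 for the 6 mevalonate steps (5 below 0) and -0.02 for the 12 squalene and sterol steps (6 below and 6 above 0). With trends in intensity and span removed, the medians of the 18 synthesis and the 5 LXR and efflux genes were -0.12 and 0.07. Those of the mevalonate and of the squalene and sterol steps were -0.138 and 0.008. Ebp was then at -0.47 and Mvd at -0.55, both within 1.5-fold, and Insig1 was at 0.71. Each such value is built from all 4 arrays, which the other comparisons also use.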

How the data were processed

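The values are log2 expression levels per probe set, as deposited, to 2 decimals; per the submitters' processing notes the tools were Partek 6.2, Affymetrix Expression Console and RMA, whose roles and order are not stated, and the base of the logarithm was taken from RMA and the range of the values. No scanner files were used. Probe sets were named from the platform annotation: of 28944, 21789 had 1 symbol, 1621 several and 5534 none, and 21698 matched a RefSeq gene. Genes that reached 4.26 on at least 1 array were tested; this floor is the median over probe sets of the 4-array mean. The additive limma model (limma 3.58.1, R 4.3.3, eBayes with an intensity trend) had terms for the genotype label and for LPS, with Benjamini-Hochberg adjustment over 11326 genes and a threshold of 0.05. It has 1 residual degree of freedom and a prior of 3.07, and 169 genes had a residual of 0. Because it leaves out an interaction, an unequal response counts as error. Differences between 2 arrays have no test and were counted at 1.5-fold and 2-fold. The fit was also run on simulated data with no rounding, no trends between arrays and set changes that were equal in both labels. There it missed most of the smaller changes, and its share of false calls lay above the threshold. The 8 alternatives covered the floor, normalization, rounding, trend, covariates, probe sets and trends in intensity and gene span. All genes of the set with a value are named; of the further lists, those that passed, and the 4 with the largest mean difference. The members and lists were chosen with earlier results of these data known. Promoters are from RefSeq, GRCm38.p6.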

Additional observations from a re-analysis of the deposited data

Results flagged for a closer look

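In 6 of the 30 genes the LPS difference had opposite signs in the 2 labels, as it had in 3253 of the 11326 genes tested. The difference between the labels was not tested, since each group has 1 array. On the log2 scale, Sc5d differed with LPS by -0.83 in the Bid-/- label and 0.13 in WT, a gap of -0.96. Fdps differed by -0.60 in the Bid-/- label and 0.08 in WT, a gap of -0.68, and Ebp by -0.36 in the Bid-/- label and 0.25 in WT, a gap of -0.61. The gaps of the other 3 were below 1.5-fold: Sqle differed by -0.27 in the Bid-/- label and 0.05 in WT (-0.32), Stard4 by -0.04 in the Bid-/- label and 0.10 in WT (-0.14), and Abca1 by 0.11 in the Bid-/- label and -0.34 in WT (0.45).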

How the results depend on the processing

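No paired analysis was possible because each group has 1 array, and for the same reason no array could be left out. All counts are from limma. Among all genes, 190 were higher and 177 lower with LPS, against 0 and 0 without a floor, 412 and 539 with a floor of 6 (17 of the 30 genes tested), 808 and 1112 after quantile normalization, 708 and 1410 with noise inside the rounding, 325 and 551 without the genotype term, and 993 and 1379 with trends removed; without the eBayes trend 92 were lower. Of the 30 genes, 1 was higher, against 0 without a floor and 3 with trends removed (Hmgcs1, Srebf2 and Ch25h); 0 were lower, against 4 with a floor of 6, 6 after quantile normalization, 9 with noise, 4 without the genotype term and 7 with trends removed. The genotype label gave 0 genes, against 39 after quantile normalization, 16 with noise and 50 with trends removed, none among the 30. The median LPS difference of the 30 genes on the arrays labelled Bid-/- was -0.30, and -0.192 with trends removed; in WT it was -0.11, and -0.039 both with trends removed and after quantile normalization. Effects that changed sign passed no test. After quantile normalization these were Ebp with LPS (0.042) and Insig2 by label (-0.009), and with probe sets averaged Fdft1 by label (0.035). With trends removed they were Pmvk (0.003), Ebp (0.06) and Srebf1 (0.02) with LPS, and Srebf2 (-0.085), Insig2 (-0.045), Abcg1 (-0.038) and Apoe (0.079) by label. The cause was not tested.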
